A study of Saccharomyces cerevisiae with 8 samples.

Results

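The cytosolic chaperonin CCT, also called TRiC, is built from 8 subunits, each encoded by its own gene in budding yeast (Saccharomyces cerevisiae): TCP1, CCT2, CCT3, CCT4, CCT5, CCT6, CCT7 and CCT8. These 8 genes were taken by their identifiers from a table of 6692 gene identifiers, and all 8 matched the expected gene symbol. The yeast grew in rich medium (YEPD) at 30 °C to an OD600 of 0.6, and every group received 100 ug/ml cycloheximide, which stalls elongating ribosomes, for 2 min before filtration. There were 4 groups of 2 libraries each. Monosome footprints came from pooled gradient fractions of mRNAs with a single 80S ribosome, polysome footprints from pooled fractions with several ribosomes, global footprints from the whole lysate digested before the gradient, and mRNA from total RNA of the lysate after removal of rRNA. Footprints, the stretches of mRNA covered by a ribosome during RNase I digestion, were 26 to 32 nt long, and mRNA fragments 20 to 45 nt. The strain is not given, and the labels do not say that the 2 libraries of a group came from separate cultures, so each p-value reflects how far these libraries differ, and that spread may be technical.

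CCT consists of a pair of stacked rings, and each ring holds 1 copy of each of the 8 subunits in a fixed order. It encloses newly made proteins and folds them in cycles of ATP binding and hydrolysis. Actin and the tubulins are its best-known clients, and proteins with WD40 repeats form another large group of clients. All 8 subunits are related in sequence and share the same domain plan, and each is essential in yeast. TCP1 is the alpha subunit, CCT2 beta, CCT3 gamma, CCT4 delta, CCT5 epsilon, CCT6 zeta, CCT7 eta and CCT8 theta. Because the complex needs its subunits in equal number, the level of each in footprints and in mRNA can be set beside that of its partners.

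Libraries held 4723489 and 6443263 counts in monosomes, 8686385 and 7494965 in polysomes, 749057 and 552992 in global footprints, and 933252 and 672928 in mRNA. The chaperonin genes were well covered in footprints. Their counts per gene ran from 596 to 2152 in monosomes, from 1340 to 3126 in polysomes and from 154 to 308 in global footprints. In mRNA they ran from 74 to 486, with CCT7 lowest at 86 and 74 (exact Poisson 95% intervals 68.8 to 106 and 58.1 to 92.9, which cover counting error only). Levels below are TMM-scaled CPM, that is, counts relative to a library size that TMM adjusts by assuming that most genes do not differ. Every level is relative to the TMM-adjusted size of its library and is no absolute amount. In these bulk samples fewer cells with an mRNA and less of it per cell cannot be told apart.

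In the R64 assembly, TCP1 (YDR212W) lies on chromosome IV from 887232 to 888911, CCT4 (YDL143W) on chromosome IV from 199996 to 201582 and CCT6 (YDR188W) on chromosome IV from 836421 to 838061. CCT2 (YIL142W) lies on chromosome IX from 83302 to 84885. Chromosome X holds the other 4, with CCT7 (YJL111W) from 207877 to 209529, CCT3 (YJL014W) from 407558 to 409162, CCT8 (YJL008C) from 419957 to 421663 and CCT5 (YJR064W) from 555914 to 557602. The genes are alike in length, from 1584 nt in CCT2 to 1707 nt in CCT8. None overlaps another gene of the reference table.

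Per kb of gene length, the 8 subunits stood well above the median tested gene in every kind of library. Their mean level was 97.8 ± 1.28 CPM per kb in monosomes, 175.8 ± 4.67 in polysomes, 172.7 ± 3.54 in global footprints and 249 ± 19.2 in mRNA (SD over 2 libraries). With library totals in place of TMM these means were 120.7, 158, 213 and 181 CPM per kb, so the order of the groups depends on the scaling. The median over 5264 tested genes with a known length was between 21.1 and 26.2 CPM per kb in every library. The lowest of the 8 subunits exceeded at least 70.6% of these genes and the highest at most 93.0%, over the 8 libraries.

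The subunits were most alike in global footprints and least alike in mRNA. In global footprints the highest subunit had 1.39 and 1.52 times the level of the lowest, whereas in mRNA it had 5.53 and 4.26 times that level (replicates 1 and 2). The coefficient of variation over the 8 levels per kb was 14.1 ± 2.38% in global footprints, 23.7 ± 1.15% in polysomes, 33.4 ± 2.19% in monosomes and 52.2 ± 6.48% in mRNA (SD, n = 2 libraries each). These ratios lie within a library and do not depend on its scaling. Each of the 6 footprint libraries had a smaller spread over the subunits than either mRNA library. Over all tested genes the upper quartile of the level per kb was 7.29 to 7.69 times the lower quartile in global footprints and 7.66 to 8.05 times in mRNA. For the 8 subunits the same quartile ratio was 1.21 and 1.33 in global footprints, and 3.13 and 2.46 in mRNA.

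**Figure D1:**
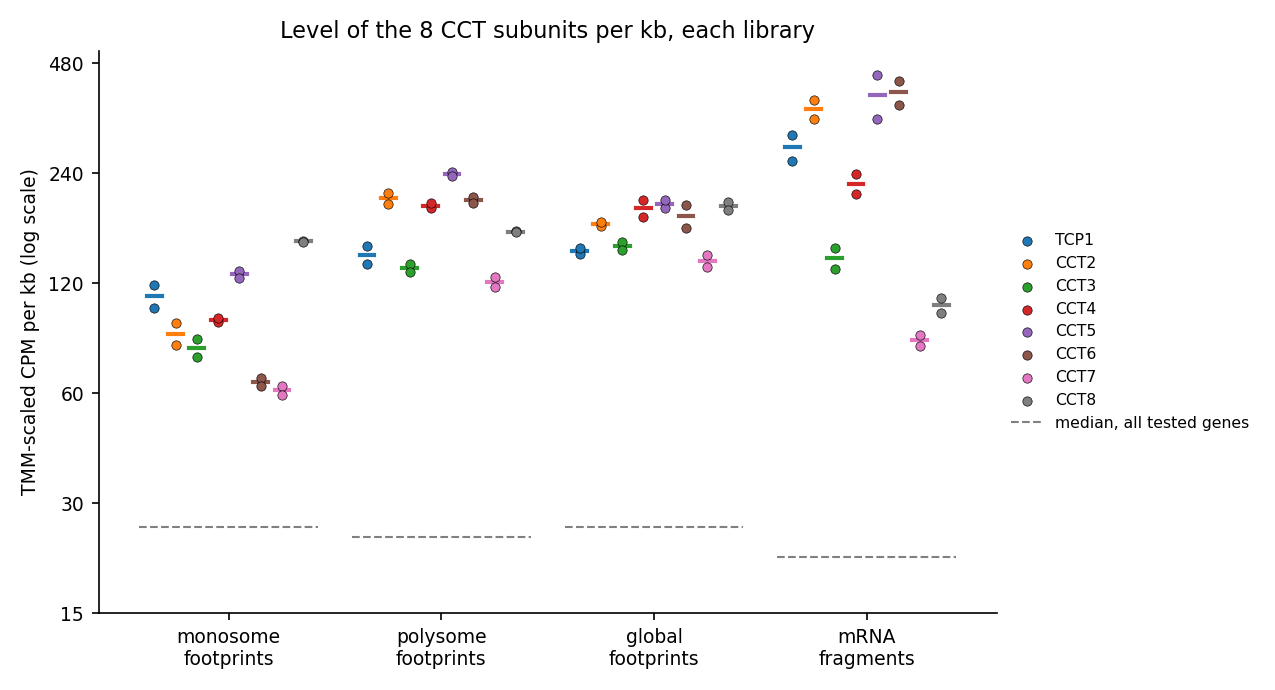
Level of each CCT subunit in TMM-scaled CPM per kb of gene length (log axis) in monosome, polysome and global footprints and in mRNA. Points are the 2 libraries of a group, short bars their mean and dashed lines the median of all tested genes. The subunits lie closest together in global footprints, where the highest has 1.39 and 1.52 times the level of the lowest, and farthest apart in mRNA.

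The order of the subunits changed between groups. In monosomes CCT8 was highest at 156 ± 0.116 CPM per kb (SD, n = 2), followed by CCT5 at 127 ± 3.96, TCP1 at 111 ± 11.6, CCT4 at 95.1 ± 1.90, CCT2 at 87.4 ± 8.36, CCT3 at 80.1 ± 6.39, CCT6 at 64.5 ± 2.44 and CCT7 at 61.1 ± 2.42. Among neighbours in that order, the libraries of CCT2 and CCT3 overlapped, as did those of CCT6 and CCT7. In polysomes CCT5 led at 239 ± 4.44 CPM per kb. CCT2 (205 ± 9.46), CCT6 (203 ± 5.68) and CCT4 (196 ± 4.92) followed with overlapping libraries, then CCT8 (166 ± 0.605), TCP1 (144 ± 12.0), CCT3 (132 ± 4.64) and CCT7 (121 ± 5.31). CCT7 was last in all 4 groups, and CCT6 stood next to last in monosomes but near the top in polysomes. In global footprints CCT5 (198 ± 6.45 CPM per kb), CCT8 (196 ± 6.58), CCT4 (192 ± 14.8), CCT6 (184 ± 19.2) and CCT2 (174 ± 3.71) could not be separated from their neighbours by their libraries. CCT3 (152 ± 5.47), TCP1 (147 ± 3.61) and CCT7 (139 ± 7.42) lay below these 5. In mRNA CCT6 (399.8 ± 43.4 CPM per kb), CCT5 (393 ± 76.1) and CCT2 (359.7 ± 31.9) had overlapping libraries at the top. TCP1 (283 ± 32.2), CCT4 (225 ± 20.3), CCT3 (141 ± 12.7), CCT8 (105 ± 6.64) and CCT7 (83.7 ± 4.14) followed, each without overlap with the next.

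Monosome against polysome footprints asked whether the chaperonin subunits had lower TMM-scaled levels in the footprints of single ribosomes. They did for 7 of the 8: TCP1, CCT2, CCT3, CCT4, CCT5, CCT6 and CCT7 were lower in monosomes at an edgeR adjusted p under 0.05, and CCT8 did not pass. Of the 5336 genes tested, 33.5% were called lower and 36.6% higher. The median log2 fold change was -0.95 over the 8 subunits and 0.05 over all tested genes. On the TMM scale, both monosome libraries lay below both polysome libraries for all 8 subunits and for 40.3% of all tested genes. The reverse held for 0 subunits and 44.1% of tested genes. This separation was not counted on library totals, where the log2 fold changes of CCT8 and TCP1 turned to 0.37 and 0.08.

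CCT6 had the largest difference. It was at 109 and 103 CPM in the monosome libraries, against 340.3 and 327 CPM in the polysome libraries. The polysome values were thus about 3 times as high, with little spread within either group, at a log2 fold change of -1.66 with an SE of 0.11 (adjusted p = 5.70e-26 in edgeR). This put CCT6 in the lowest 0.487% of the tested genes. CCT2 was at 148 and 129 CPM in monosomes, against 336 and 314 CPM in polysomes. Its groups did not overlap, with a log2 fold change of -1.23 and an SE of 0.11 (adjusted p = 3.90e-19 in edgeR).

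CCT4, CCT7 and CCT5 were close to 2-fold lower in monosomes. CCT4 was at 149 and 153 CPM in monosomes, against 305 and 316 CPM in polysomes, a log2 fold change of -1.04 with an SE of 0.10 (adjusted p = 4.03e-16 in edgeR). CCT7 was at 104 and 98.2 CPM in monosomes, against 206 and 194 CPM in polysomes, a log2 fold change of -0.99 with an SE of 0.10 (adjusted p = 6.89e-16 in edgeR). CCT5, the subunit with the highest polysome level, was at 219.8 and 210.3 CPM in monosomes, against 409 and 398 CPM in polysomes, a log2 fold change of -0.91 with an SE of 0.11 (adjusted p = 1.37e-12 in edgeR). In each of the 3 the libraries of a group differed far less than the groups.

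CCT3, TCP1 and CCT8 differed least. CCT3 was at 136 and 121 CPM in monosomes, against 217 and 207 CPM in polysomes, a log2 fold change of -0.73 with an SE of 0.10 (adjusted p = 1.80e-10 in edgeR). TCP1 was at 172 and 200 CPM in monosomes, against 256 and 228 CPM in polysomes. The TCP1 groups did not overlap, but the higher monosome and the lower polysome library were close. It had a log2 fold change of -0.38 with an SE of 0.10 (adjusted p = 0.000744 in edgeR), and did not pass without monosome replicate 1 (-0.25), without polysome replicate 1 (-0.26) or in a test of well-counted genes alone (mean of 100 counts or more, -0.13). The TMM factors of that test were recomputed over its own genes, and the median over the 8 subunits moved from -0.947 to -0.705 there. CCT8 was at 267 and 267 CPM in monosomes, against 284 and 283 CPM in polysomes. The CCT8 libraries did not overlap, but the difference was small (a log2 fold change of -0.09 with an SE of 0.10 and, in edgeR, an adjusted p of 0.428, with 0.000301 to 0.748 over the alternatives).

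When library totals replaced the TMM factors, the median over all tested genes shifted by scaling alone and stood at 0.50 rather than 0.05, and 3030 genes were called higher and 867 lower, against 1954 and 1790. On that scale 6 subunits were lower, with CCT6 at -1.21, TCP1 turned to 0.08 and did not pass, and CCT8 was called higher at 0.37 (edgeR adjusted p = 0.000301). The order of the subunits among themselves is the same on either scale. In the authors' deposited table, whose sign follows monosome over polysome counts, the same 7 subunits had an adjusted p-value under 0.05, from -1.71 for CCT6 to -0.44 for TCP1 on the log2 scale, and CCT8 was at -0.15 with an adjusted p-value of 0.174.

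CCT8 and CCT6, the 2 ends of this comparison, were set against each other within each library, a pair chosen after their values were seen. Per kb, CCT8 had 2.36 and 2.49 times the level of CCT6 in monosomes, against 0.803 and 0.831 times in polysomes. CCT8 thus lay above CCT6 in both monosome libraries and below it in both polysome libraries, a 2.97-fold change of the ratio. An exact permutation test on 2 against 2 libraries gave a two-sided p of 0.333, the smallest that this number of libraries allows. In global footprints the ratio was 1.18 and 0.970, between those of monosomes and polysomes, and in mRNA it was 0.254 and 0.270.

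**Figure D2:**
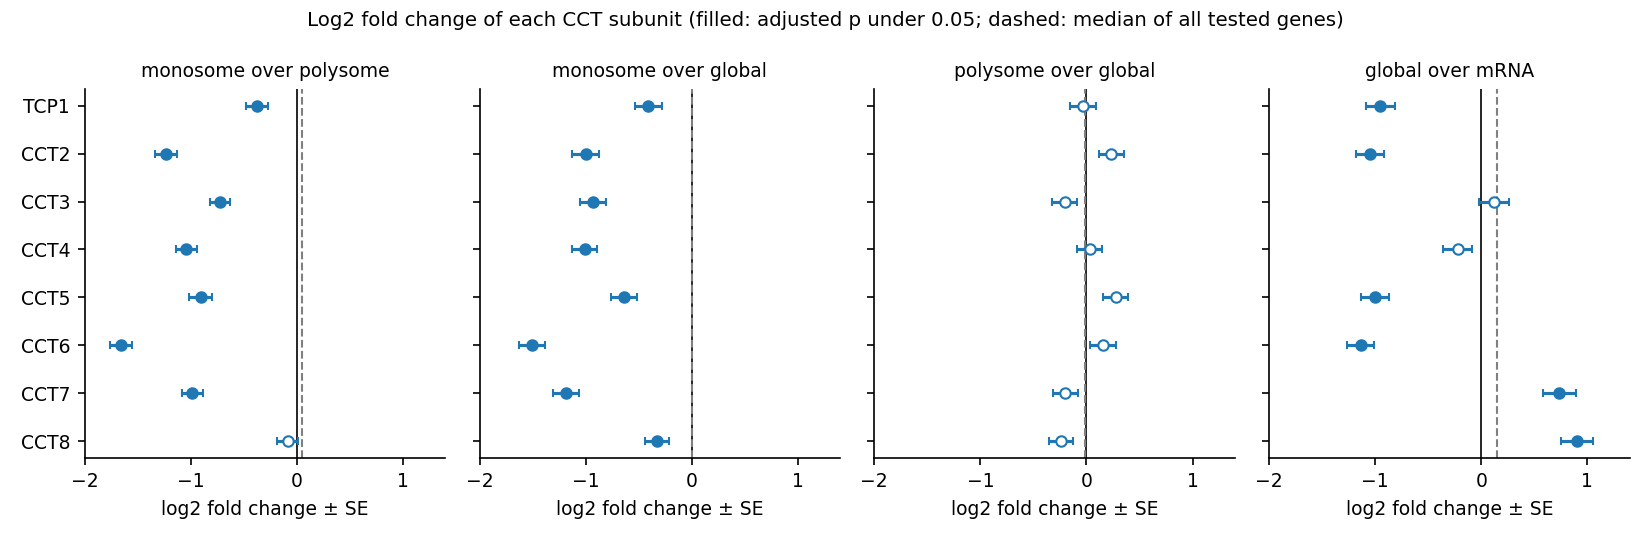
Log2 fold change of each CCT subunit in the 4 comparisons, with bars of 1 SE; filled points passed an edgeR adjusted p of 0.05, and dashed lines mark the median of all tested genes. Monosome levels were lower for 7 subunits against polysomes and for 8 against global footprints, no subunit passed between polysome and global footprints, and subunits lay on both sides of 0 for global footprints over mRNA.

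Against global footprints, which sample all ribosomes, all 8 subunits were lower in monosomes (24.3% of tested genes were called lower and 22.2% higher), and both monosome libraries lay below both global ones for all 8 (36.9% of tested genes, with 36.7% the other way round). This comparison shares the monosome libraries with the one above and is no separate support for it. The median log2 fold change was -0.96 over the subunits and 0.00 over all tested genes, and library totals moved neither by more than 0.01. CCT6 was at 109 and 103 CPM in monosomes, against 279 and 323 CPM in global footprints, a log2 fold change of -1.50 with an SE of 0.13 (adjusted p = 9.66e-19 in edgeR). CCT7 was at 104 and 98.2 CPM in monosomes, against 238 and 220.3 CPM in global footprints, a log2 fold change of -1.19 with an SE of 0.12 (adjusted p = 1.83e-14 in edgeR). For CCT6 and CCT7 no monosome library came near a global one. CCT4 (-1.01), CCT2 (-0.999), CCT3 (-0.93) and CCT5 (-0.63) were lower with edgeR adjusted p values from 6.60e-12 to 8.42e-06. TCP1 was at 172 and 200 CPM in monosomes, against 243 and 252 CPM in global footprints, a log2 fold change of -0.41 with an SE of 0.12 (adjusted p = 0.00444 in edgeR), and lost the call without monosome replicate 1 (-0.29). CCT8 was at 267 and 267 CPM in monosomes, against 342 and 326 CPM in global footprints, a log2 fold change of -0.33 with an SE of 0.12 (adjusted p = 0.0140 in edgeR). The CCT8 call was lost without global replicate 1 (-0.30) and in the test of well-counted genes alone (-0.23).

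Polysome and global footprints of the subunits differed little. No subunit passed with edgeR (2 had an unadjusted p under 0.05, and 0 passed with DESeq2), where 10.0% of tested genes were called lower and 13.5% higher in polysomes. The log2 fold changes ran from -0.24 in CCT8 to 0.27 in CCT5, with a median of 0.00 over the 8 subunits and -0.02 over all tested genes. CCT5 was at 409 and 398 CPM in polysomes, against 327 and 342 CPM in global footprints. CCT8 was at 284 and 283 CPM in polysomes, against 342 and 326 CPM in global footprints. On the TMM scale CCT5 was thus higher and CCT8 lower in both polysome libraries than in either global library. Their adjusted p values in edgeR were 0.0897 and 0.119, and CCT5 turned to -0.18 with library totals. Also on the TMM scale, both polysome libraries lay below both global ones for 3 subunits and above them for 3, against 30.8% and 31.5% of tested genes. With library totals the median over all tested genes shifted to -0.46 (181 genes called higher and 2002 lower, against 720 and 534), that of the subunits to -0.45, and TCP1, CCT3, CCT4, CCT6, CCT7 and CCT8 were called lower.

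Global footprints against mRNA, the translational efficiency of a gene, split the chaperonin. TCP1, CCT2, CCT5 and CCT6 had lower levels in global footprints than in mRNA, CCT7 and CCT8 had higher ones, and CCT3 and CCT4 did not pass. Of the tested genes 31.0% were called lower and 34.8% higher, and the median log2 fold change was -0.59 over the subunits and 0.15 over all tested genes. Ratios here compare 2 kinds of library, so their zero point is set by the scaling.

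CCT6 was at 279 and 323 CPM in global footprints, against 706 and 606 CPM in mRNA, a log2 fold change of -1.13 with an SE of 0.13 (adjusted p = 3.20e-13 in edgeR). CCT2 was at 272 and 280.4 CPM in global footprints, against 606 and 534 CPM in mRNA, a log2 fold change of -1.05 with an SE of 0.13 (adjusted p = 1.46e-11 in edgeR). CCT5 was at 327 and 342 CPM in global footprints, against 755 and 573 CPM in mRNA, a log2 fold change of -0.999 with an SE of 0.13 (adjusted p = 8.46e-11 in edgeR). These 3 subunits had the highest mRNA levels of the complex, also per kb. TCP1 was at 243 and 252 CPM in global footprints, against 514 and 437 CPM in mRNA, a log2 fold change of -0.95 with an SE of 0.14 (adjusted p = 1.39e-09 in edgeR).

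CCT8 was at 342 and 326 CPM in global footprints, against 186 and 170.3 CPM in mRNA, a log2 fold change of 0.90 with an SE of 0.15 (adjusted p = 7.59e-08 in edgeR). CCT7 was at 238 and 220.3 CPM in global footprints, against 133 and 143 CPM in mRNA, a log2 fold change of 0.74 with an SE of 0.16 (adjusted p = 2.55e-05 in edgeR). Both had more CPM in either global library than in either mRNA library, and their mRNA was the scarcest of the complex. The mRNA level is the denominator of this ratio, so scarce or abundant mRNA is no separate observation from a high or low ratio. CCT3 was at 249.9 and 238 CPM in global footprints, against 211 and 240 CPM in mRNA, a log2 fold change of 0.12 with an SE of 0.14 (adjusted p = 0.468 in edgeR). CCT4 was at 289 and 322 CPM in global footprints, against 334 and 379 CPM in mRNA, a log2 fold change of -0.22 with an SE of 0.13 (adjusted p = 0.137 in edgeR). The libraries of CCT3 overlapped between the groups, and those of CCT4 lay close together. CCT4 was called lower with DESeq2 (-0.38, adjusted p = 0.0106), with RLE factors (-0.38), among well-counted genes alone (-0.49) and in a fit of only these groups (-0.33), and CCT3 turned to -0.03 with DESeq2 without passing. On the TMM scale, both global libraries lay below both mRNA libraries for 5 subunits and above them for 2, against 37.5% and 43.7% of all tested genes.

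With library totals the median over all tested genes shifted to 0.91 (2906 called higher and 1028 lower, against 1855 and 1653) and that of the subunits to 0.18. CCT2 (-0.29) and CCT6 (-0.37) stayed lower on that scale, TCP1 (-0.19) and CCT5 (-0.23) no longer passed, CCT3 (0.88) and CCT4 (0.54) were called higher, and CCT7 (1.497) and CCT8 (1.67) remained higher. Differences between subunits do not move with the scale. Per kb, CCT6 had 1.18 and 1.48 times the level of CCT7 in global footprints, against 5.33 and 4.26 times in mRNA. For CCT5 over CCT7 the ratios were 1.34 and 1.52 in global footprints, against 5.53 and 3.91 in mRNA. For CCT8 over CCT7, the 2 subunits with scarce mRNA, they were 1.39 and 1.43 in global footprints, against 1.35 and 1.15 in mRNA. These pairs were chosen after their values were seen.

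**Figure D3:**
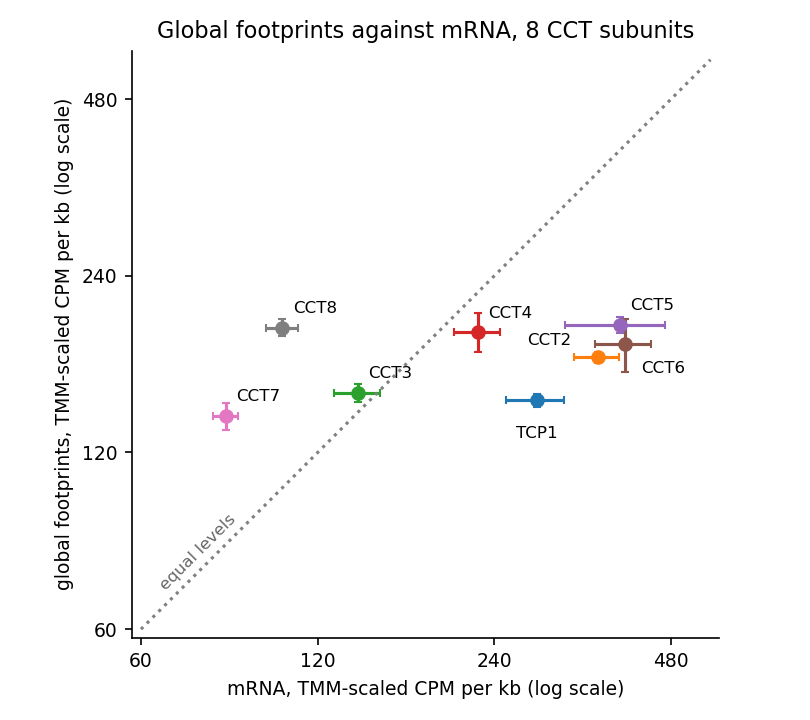
Mean level of each CCT subunit in global footprints (vertical) against mRNA (horizontal), both in TMM-scaled CPM per kb on log axes of equal scale, with bars of 1 SD over 2 libraries; the dotted line marks equal levels. The subunits spread along the mRNA axis from CCT7 at 83.7 to CCT6 at 399.8 and stay between 139 and 198 on the footprint axis.

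Prefoldin, which hands unfolded actin and tubulin chains to CCT, has 6 subunits encoded by short genes of 330 to 600 nt. In monosomes against polysomes YKE2 (log2 fold change 0.47) and GIM5 (0.39) were higher, GIM4 (-0.29) was lower, and PAC10 (-0.02), GIM3 (-0.11) and PFD1 (0.18) did not pass. These 1 lower and 2 higher of 6 stand beside 33.5% and 36.6% of all tested genes. The median was 0.08, against -0.95 over the CCT subunits and 0.05 over all tested genes. With library totals 0 prefoldin genes were called lower and 5 higher, beside 867 and 3030 of 5336 tested genes. On that scale GIM4 turned to 0.17, PAC10 to 0.43 and GIM3 to 0.35. PLP2, a phosducin-like protein that assists CCT, was lower in monosomes (-0.70, edgeR adjusted p = 4.26e-08), and did not pass with library totals (-0.25).

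All 6 prefoldin genes had higher levels in global footprints than in mRNA (median log2 fold change 2.87), where 34.8% of all tested genes were called higher at a median of 0.15, but their mRNA counts were low. On library totals all 6 were also called higher at a median of 3.63, with 2906 of 5336 tested genes called higher and an all-gene median of 0.91. PAC10 had 95 and 62 counts in global footprints, against 26 and 19 in mRNA, and GIM4 had 56 and 50, against 3 and 3. YKE2, with 60 and 39 counts in global footprints and 1 and 2 in mRNA, had a scaled level 24.0 times as high in global footprints (95% counting interval 7.96 to 118).

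In monosomes against polysomes the actin gene ACT1 (log2 fold change -1.37), the beta-tubulin gene TUB2 (-1.81) and the alpha-tubulin genes TUB1 (-1.47) and TUB3 (-1.03) were lower, as were SIF2 of the Set3 histone deacetylase complex (-1.01) and the phosphatase regulator gene CDC55 (-0.36). CDH1, an activator of the anaphase-promoting complex (0.64), and STE4, the G protein beta subunit of the mating pathway (0.31), were higher. CDC20 (-0.05), the deacetylase gene HOS2 (-0.25) and the peroxisomal receptor gene PEX7 (0.12) did not pass. Of the 11 clients 6 were thus lower and 2 higher with edgeR, at a median of -0.36, beside 33.5% lower, 36.6% higher and a median of 0.05 over all tested genes. On library totals 5 were lower and 4 higher, beside 867 and 3030 of 5336 tested genes. The client median was 0.10 there, with an all-gene median of 0.50, and CDC55, CDC20 and HOS2 changed sign (0.10, 0.41 and 0.21). TUB1 and TUB3 are closely related in sequence and may share reads, so their separate values are uncertain.

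The actin and tubulin genes had less of global footprints than of mRNA. ACT1 (-1.29), TUB1 (-1.30), TUB2 (-1.16) and TUB3 (-1.02) were lower in global footprints, beside -1.13 for CCT6 and -1.05 for CCT2. ACT1 was at 2772 ± 134 CPM in global footprints and 6789 ± 509 CPM in mRNA (SD, n = 2 each). CDC55 (1.51), SIF2 (1.05) and CDC20 (0.90) were higher in global footprints and CDH1 (-0.86) lower, at mRNA counts from 6 to 43. With TMM 5 of the 11 clients were called lower and 3 higher, beside 31.0% and 34.8% of all tested genes. On library totals 3 were called lower and 5 higher, beside 1028 and 2906 of 5336 tested genes. On that scale ACT1 was at -0.53, TUB1 at -0.53, TUB2 at -0.40, TUB3 at -0.25 and CDH1 at -0.10.

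Other chaperones were set beside CCT for scale. All 13 genes of the cytosolic Hsp70 and Hsp90 system and their partners passed in edgeR as lower in monosomes, at a median of -1.22, beside 33.5% of all tested genes and a median of 0.05. On library totals 12 of them passed as lower and the median was -0.77, with 867 of 5336 genes called lower. HSP82 (-1.56) and HSC82 (-1.52), the Hsp90 genes, were lowest, and the Hsp70 genes SSA2 (-0.56) and SSZ1 (-0.87) were highest. SSA, SSB and Hsp90 genes come in near-identical copies that may share reads. In mitochondria, whose HSP60 forms a chaperonin of a single kind of subunit, HSP60 itself was lower (-1.22), whereas its short co-chaperonin gene HSP10 (0.41) and TCM62 (1.03) were higher. CCT6 lay below every one of these Hsp70, Hsp90 and mitochondrial genes, at -1.66, and CCT8 (-0.09) and TCP1 (-0.38) above all 13 of the cytosolic system.

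**Figure D4:**
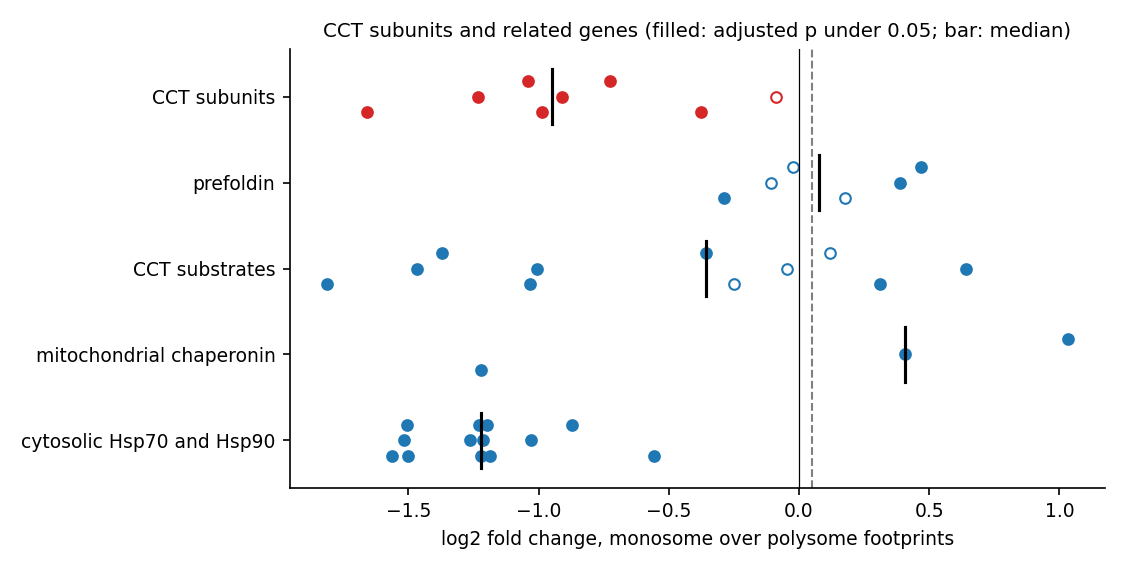
Log2 fold change of monosome over polysome footprints for the CCT subunits (red) and related genes (blue). Filled points passed an edgeR adjusted p of 0.05, black bars are list medians and the dashed line is the median of all tested genes; the CCT median was -0.95 and that of prefoldin 0.08.

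Likeness to the chaperonin over all 8 libraries was measured by the distance between centred log2 CPM profiles, with the mean profile of the 8 subunits as the target, among 4163 other genes averaging 50 or more counts. The nearest were CLU1, a protein linked to the distribution of mitochondria (distance 0.167), YDL086W (0.243), URA7, a CTP synthase (0.245), SCP160, an RNA-binding protein of polysomes (0.283), and SUB2, a helicase of mRNA export (0.296), against a median distance of 2.26. The subunits themselves were not the closest genes to their own mean. CCT4 lay at 0.300, with 7 other genes nearer, and CCT3 at 0.527, with 83 nearer. CCT6 lay at 1.45 and CCT8 at 1.82, with 1040 and 1510 other genes nearer.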

How the data were processed

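Raw read counts of 8 libraries, unscaled, were taken from the deposited table. Per the submitters' processing notes TopHat, Bowtie and HTSeq were used with sacCer3; their versions, the strandedness used in counting and the handling of multiply matching reads are not given in the sources used here. The authors' deposited log2 fold changes and adjusted p-values, from DESeq2 per the file headers, name no comparison and were used only for the values quoted as theirs. Identifiers were matched to the R64 RefSeq table (6008 of 6692); gene length there includes introns.

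Counts were tested with edgeR 4.0.16 in R 4.3.3: quasi-likelihood F test, 1 fit of 8 libraries in 4 groups, TMM factors, filterByExpr (minimum count 10, minimum total 15; 5336 genes, all 8 subunits kept) and Benjamini-Hochberg adjustment over all genes at 0.05. The SE is the absolute log2 fold change divided by the square root of F and restates the test. DESeq2 1.42.0 was an alternative, beside other scalings, filters, libraries in the fit, a replicate block and left-out libraries. Profiles used log2 CPM with a prior count of 2. The script was tested on simulated data. Chi-square statistics between the 2 libraries of each group were 1.49 to 5.42 times their degrees of freedom, above counting noise. The named genes are all 8 subunits, all prefoldin and client genes, the cofactor gene PLP2 (another cofactor is not reported here), the 2 lowest and 2 highest of other lists for monosomes against polysomes, and the 5 nearest profiles. The members and lists were chosen with earlier results of these data known. The scripts ran in Python 3.11.15.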

Additional observations from a re-analysis of the deposited data

How the results depend on the processing

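Of 352 recomputed log2 fold changes of the 8 subunits (8 subunits, 4 comparisons, each alternative), 314 kept their direction and side of the threshold. Another 15 changed sign, whether or not they passed. Among those that kept their sign, 15 newly passed and 8 no longer passed. Library totals gave 6 subunits called lower and 1 higher for monosome against polysome (all genes 867 and 3030), 6 lower for polysome against global (2002 and 181) and 2 lower and 4 higher for global against mRNA (1028 and 2906). Signs turned with library totals for TCP1 (0.081) and CCT8 (0.37) in monosome against polysome, for CCT2 (-0.21), CCT4 (-0.42), CCT5 (-0.18) and CCT6 (-0.30) in polysome against global, and for CCT4 (0.54) in global against mRNA. When only genes averaging 100 or more counts were tested, CCT8 turned to 0.16 in monosome against polysome. CCT4 turned to -0.12 in polysome against global and CCT3 to -0.15 in global against mRNA. In polysome against global 3 subunits were lower, beside 478 of 3086 tested genes lower and 491 higher. The tests over fewer genes gave 1118 lower and 1190 higher for monosome against polysome and 1082 and 1204 for global against mRNA. CCT3 also turned in global against mRNA with DESeq2 (-0.033) and RLE factors (-0.032). In fits of only the groups compared, 1 subunit was lower (CCT8) and 1 higher (CCT5) for polysome against global, beside 613 and 792 of 5056 tested genes. Leaving out 1 library, TCP1 ran from -0.13 to 0.10 and CCT4 from -0.037 to 0.116 in polysome against global, and 259 to 438 of all genes were lower there (277 without global replicate 1 and 259 without global replicate 2). Library totals and RLE factors differed from the main fit only in the scaling. For genes averaging 100 or more counts the TMM factors were recomputed, and the median over the 8 subunits moved as well. It went from -0.947 to -0.705 in monosome against polysome and from -0.001 to -0.148 in polysome against global. In global against mRNA it went from -0.587 to -0.855. The cause of these and the remaining changes was not tested. The replicate block called 1 subunit higher (CCT5, polysome against global, beside 786 of 5336 tested genes) and changed no other count of subunits. Same-numbered libraries shared little (r of their differences 0.05 to 0.10 between groups), and they share only a number. The length taken from protein sequences was not run. With 2 libraries a group and 74 to 86 mRNA counts for CCT7, small differences are not detectable.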

Other observations

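Over the 8 CCT subunits, the ratio of monosome to polysome footprints was higher where the ratio of global footprints to mRNA was higher (Spearman's rho 0.69, Pearson's r 0.53, n = 8 genes), whereas over 5336 tested genes the relation had the other sign (rho -0.18, r -0.23). Computed from replicate 1 alone, rho over the subunits was 0.62, and from replicate 2 alone it was also 0.62. The 2 ratios use different libraries, but each value of a ratio comes from the same libraries for all 8 genes. Without CCT6 and CCT8, the ends of the first ratio, rho was 0.26 and r -0.09 over the other 6; taking out the ends also narrows the range, and no other pair was left out. Across the subunits, levels per kb followed mRNA levels in polysomes (rho 0.81, r 0.78), less in global footprints (rho 0.38, r 0.42) and least in monosomes (rho 0.07, r 0.05). Global footprints had the fewest footprint counts (154 to 308 per subunit) and the narrowest spread over the subunits (coefficient of variation 14.1%), which limits a correlation. No value over all tested genes is given for this relation. These values describe 8 related genes and carry no test.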
